A study of Homo sapiens with 48 samples.

Results

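The glycosaminoglycan chain synthesis enzymes studied here are the 10 genes CHPF, CHPF2, CHSY1, CSGALNACT1, CSGALNACT2, XYLT1, XYLT2, B4GALT7, B3GALT6 and B3GAT3, picked by symbol from the 58302 genes of the count table. They were picked with results of these data known, because CHPF mRNA was lowered after XBP1 silencing by more than that of the other enzymes. Values after XBP1 silencing are therefore given as a description with no p-values for single members, and counts past the threshold are printed there only beside those of all genes. The libraries came from AMO1, an established human plasmacytoma line used as a model of multiple myeloma, a cancer of antibody-secreting plasma cells. Each of 4 single-cell clones carried several doxycycline (Dox)-inducible shRNAs against 1 gene. shIRE1 clone 1 and shIRE1 clone 3 targeted ERN1, which encodes the endoplasmic reticulum stress sensor IRE1, and shXBP1 clone 1 and shXBP1 clone 18 targeted XBP1. XBP1 mRNA is spliced by IRE1 to encode the transcription factor XBP1s. Each clone received Dox at 0.2 µg/ml for 24, 48 or 72 h or was left untreated (0 h), with 3 flasks as biological replicates, which gave 16 groups and 48 poly(A) RNA-seq libraries. Every line is 1 clone and no line with a non-targeting shRNA was analysed here, so effects of Dox, of the clone and of the silenced gene cannot be told apart within a clone.

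Chondroitin sulfate and heparan sulfate are long sulfated sugar chains that are built in the Golgi on the serine residues of proteoglycan core proteins. All begin with the same linker of xylose, galactose, galactose and glucuronic acid, after which chondroitin chains grow by alternating N-acetylgalactosamine and glucuronic acid, and heparan chains by alternating N-acetylglucosamine and glucuronic acid. Plasma cells carry the proteoglycan syndecan-1 (SDC1, CD138) on their surface, and its chains hold growth factors near the cell. XYLT1 and XYLT2 are the xylosyltransferases that start the linker, B4GALT7 and B3GALT6 add its galactoses and B3GAT3 adds its glucuronic acid. CSGALNACT1 and CSGALNACT2 add the first N-acetylgalactosamine of a chondroitin chain, CHSY1 is a chondroitin synthase, and CHPF and CHPF2 are the chondroitin polymerizing factors that work with it.

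XBP1s is known to bind DNA with an ACGT core, so the promoters of the genes that the results turn on are shown first. The lines hold 250 bases before and 50 bases after the RefSeq start on GRCh38.p14, written 5′ to 3′ on the strand of the gene. Capitals mark TGACGTCA, the cyclic AMP response element, and CCACG on either strand (CGTGG on the strand shown).
CHPF (ENSG00000123989), chr2:219543760-219544059, minus strand: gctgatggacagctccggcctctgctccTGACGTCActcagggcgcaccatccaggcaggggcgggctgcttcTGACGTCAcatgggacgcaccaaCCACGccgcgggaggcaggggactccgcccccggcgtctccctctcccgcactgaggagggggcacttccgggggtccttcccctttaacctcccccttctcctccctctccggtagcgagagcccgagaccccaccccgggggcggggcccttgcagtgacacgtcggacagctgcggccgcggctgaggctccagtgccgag
CHPF2 (ENSG00000033100), chr7:151232233-151232532, plus strand: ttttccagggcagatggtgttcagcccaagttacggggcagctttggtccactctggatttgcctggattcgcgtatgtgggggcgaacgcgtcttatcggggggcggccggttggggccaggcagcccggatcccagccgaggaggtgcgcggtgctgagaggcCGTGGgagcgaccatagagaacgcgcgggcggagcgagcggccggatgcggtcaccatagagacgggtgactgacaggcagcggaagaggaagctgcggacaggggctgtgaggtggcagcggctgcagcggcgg
CHSY1 (ENSG00000131873), chr15:101251999-101252298, minus strand: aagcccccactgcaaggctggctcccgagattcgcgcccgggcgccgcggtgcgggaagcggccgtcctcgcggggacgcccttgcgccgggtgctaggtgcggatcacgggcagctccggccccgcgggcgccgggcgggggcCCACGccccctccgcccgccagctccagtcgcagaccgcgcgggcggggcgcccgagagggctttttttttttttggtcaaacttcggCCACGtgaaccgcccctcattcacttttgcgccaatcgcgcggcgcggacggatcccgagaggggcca
B3GAT3 (ENSG00000149541), chr11:62621937-62622236, minus strand: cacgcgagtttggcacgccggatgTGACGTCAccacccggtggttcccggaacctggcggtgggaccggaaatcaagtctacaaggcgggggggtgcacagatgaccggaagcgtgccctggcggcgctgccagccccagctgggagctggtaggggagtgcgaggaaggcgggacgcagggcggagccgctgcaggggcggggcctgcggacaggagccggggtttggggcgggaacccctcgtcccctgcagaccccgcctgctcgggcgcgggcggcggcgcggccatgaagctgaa
Counted from the start site, CHPF held TGACGTCA at -222 and -177 and CCACG at -154, and B3GAT3, the only other member with TGACGTCA, held it at -226. CHPF2 held CCACG at -85 on the opposite strand and CHSY1 held it at -106 and -18. CSGALNACT2, XYLT2 and B3GALT6 held CCACG too, so that 6 of the 9 members searched did. TGACGTCA occurred on either strand in 1.85% and CCACG in 38.1% of 35114 RefSeq promoters of the same length. None of the 9 held TGACGTGG, the core of the unfolded protein response element (0.729% of all promoters), the ER stress response element (CCAAT and CCACG 9 bases apart, 0.0769%) or its second form (ATTGG and CCACG 1 base apart, 0.0541%). ACGT itself, which lies inside TGACGTCA, occurred in 33.3% of all promoters and in 6 of the 9, namely CHPF, CHSY1, CSGALNACT2, XYLT1, B3GALT6 and B3GAT3, and not in CHPF2. These matches describe letters in the sequence and binding was not measured.

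Total counts ran from 19177855 to 40767202 per library. Values are CPM, each count divided by the TMM-scaled size of its library and scaled to a common total. Before TMM scaling 1 count was worth at most 0.0521 CPM. ERN1 ran from 151 to 155 CPM at 0 h and from 102 to 104 CPM at 72 h in shIRE1 clone 1, and from 414 to 447 CPM and from 123 to 129 CPM in shIRE1 clone 3. XBP1 ran from 158 to 172 CPM at 0 h and from 32.9 to 35.1 CPM at 72 h in shXBP1 clone 1, and from 164 to 178 CPM and from 31.9 to 41.3 CPM in shXBP1 clone 18. Plasma cell markers were present throughout, with SDC1 at 5130 to 15200 CPM, and 12 markers of other cell types summed to 6.48 to 22.5 CPM, of which CD3E made up 4.57 to 17.5 CPM and 3 had at most 1 count in every library. In bulk RNA fewer cells of a kind and less RNA per cell cannot be told apart. A pair of libraries stood apart. shXBP1 clone 18 at 72 h replicate 3 had a mean correlation across genes of 0.9787 with its own group and 0.9961 with shXBP1 clone 1, and shIRE1 clone 3 at 24 h replicate 1 had 0.9928 with its group and 0.9961 with shIRE1 clone 1. Values without them are given beside the results that they change. Libraries also differed in how strongly GC-rich genes were represented. A GC index was the median log2 deviation of the 20% of genes with the highest GC share (at least 57.1%) minus that of the 20% with the lowest (at most 40.4%). It ran from -0.46 to 0.75. CHPF (64.0% GC), B3GALT6 (64.2%), B3GAT3 (63.6%), XYLT2 (61.3%), B4GALT7 (59.1%) and CHPF2 (57.7%) lie among the GC-rich genes. XYLT1 (52.1%), CHSY1 (50.3%), CSGALNACT1 (46.0%) and CSGALNACT2 (38.7%) do not. Each comparison was therefore repeated with an offset for GC share in each library, which removes any shift shared by genes of like GC share, whatever its source.

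All 10 enzymes were expressed in AMO1 cells and passed the filter on low counts in every fit. Per kilobase of exon at 0 h, over the 12 untreated libraries of all clones, CHSY1 was highest at 48.3 ± 9.28 CPM per kb (SD, n = 12), followed by CHPF at 20.2 ± 10.1 and CSGALNACT2 at 10.6 ± 2.28. XYLT2 (7.15 ± 1.37 CPM per kb), CHPF2 (6.8 ± 2.78), B3GAT3 (5.81 ± 1.27), B4GALT7 (4.64 ± 0.667), XYLT1 (4.16 ± 2.98) and B3GALT6 (3.86 ± 0.551) came next, and neighbours in this order differed by less than 1 SD. CSGALNACT1 had the lowest mean, 2.19 ± 0.509 CPM per kb. The order was not the same in every clone, since XYLT1 (1.99 CPM per kb) lay below CSGALNACT1 (2.63) in shIRE1 clone 3 and XYLT2 (8.82) above CSGALNACT2 (7.62) in shXBP1 clone 1. It also depended on the length used, and per kilobase of the longest transcript XYLT2 (11.2) lay above CSGALNACT2 (10.6) and B4GALT7 stood at 8.54 CPM per kb. XYLT1 depended on the clone, with a mean of 9.03 CPM per kb in shXBP1 clone 18 and of 1.99 to 3.29 CPM per kb in the other 3 clones. Among the untreated shIRE1 clones, CSGALNACT1 was lower by 0.29 ± 0.0766 (log2, SE) in clone 1 than in clone 3 (adjusted p = 0.00213, edgeR), a call lost with no filter on low counts (-0.27, adjusted p = 0.0523), and CSGALNACT2 was lower by 0.46 ± 0.0848 (adjusted p = 2.37e-05). These were 2 of 10 members, where 40.6% of all genes tested differed.

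CHPF was the member with the deepest change after XBP1 silencing, which is why it was picked. In shXBP1 clone 1 it measured 174, 84.2 and 70.4 CPM at 0 h in replicates 1 to 3, then 23, 50.9 and 30.7 CPM at 24 h, 33, 21.2 and 30.9 CPM at 48 h and 31.5, 23.1 and 23.8 CPM at 72 h. In shXBP1 clone 18 it measured 101, 85.4 and 85.1 CPM at 0 h, 37.7, 60 and 55.8 CPM at 24 h, 35.5, 39.1 and 47.9 CPM at 48 h and 32.5, 21.3 and 24.3 CPM at 72 h. Every Dox library of both clones lay below every untreated library of its clone. The fitted log2 changes in clone 1 were -1.68 ± 0.35, -1.96 ± 0.356 and -2.09 ± 0.358 (SE) at 24, 48 and 72 h, and in clone 18 they were -0.83 ± 0.175, -1.15 ± 0.177 and -1.79 ± 0.181, so that at 72 h the transcript stood at 0.235 and 0.289 times its untreated level. Untreated replicate 1 of clone 1 held the highest CHPF value and also the highest GC index of all libraries, 0.75 against 0.14 and 0.10 in the other replicates, and without it the untreated mean was 77.3 CPM in place of 110 CPM and the change at 72 h was -1.58. With GC offsets the changes were -1.30, -1.39 and -1.53 in clone 1 and -0.84, -1.14 and -1.62 in clone 18. Without the library of clone 18 that stood apart, its change at 72 h was -1.74.

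**Figure D1:**
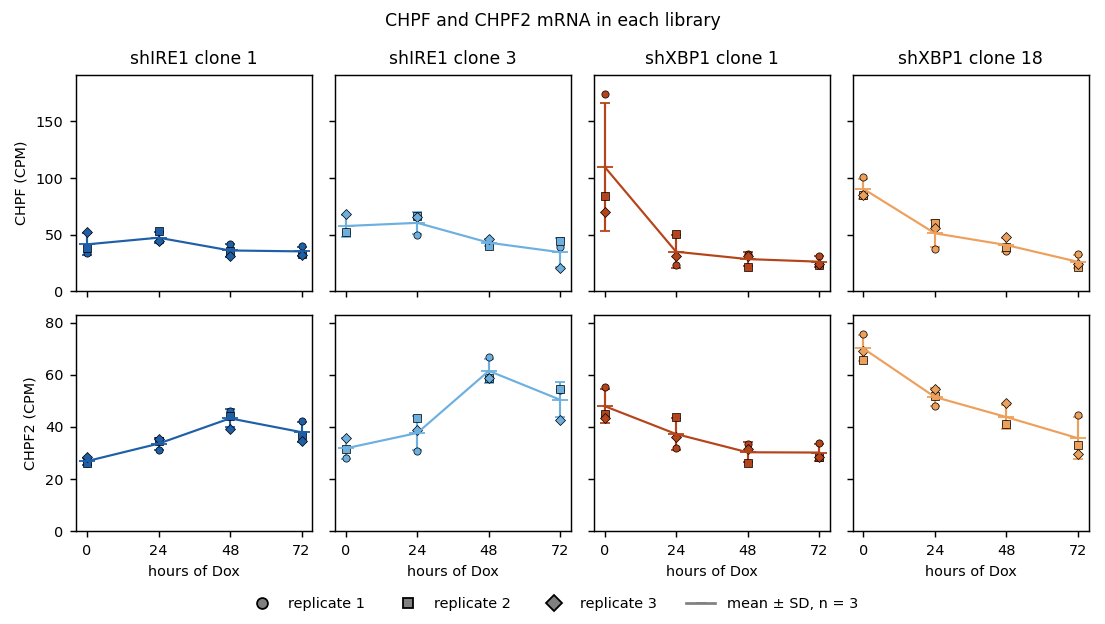
CHPF (top row) and CHPF2 (bottom row) mRNA in CPM against hours of Dox in the 4 clones. Symbols are the 3 replicates and lines with bars are mean ± SD (n = 3). CHPF ended at means of 26.1 and 26 CPM in the shXBP1 clones and of 35.2 and 34.4 CPM in the shIRE1 clones, and CHPF2 stood above its untreated mean at every time in the shIRE1 clones and below it in the shXBP1 clones.

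Log2 changes of CHPF were nearer to 0 after IRE1 silencing than after XBP1 silencing, a difference that was not tested because the choice of CHPF rested on the shXBP1 values. In shIRE1 clone 1 CHPF measured 33.6, 38.1 and 52.4 CPM at 0 h, 44.5, 52.9 and 44.6 CPM at 24 h, 42.1, 35.1 and 30.7 CPM at 48 h and 40, 33.2 and 32.3 CPM at 72 h. CHPF in shIRE1 clone 3 measured 52.5, 51.9 and 68.4 CPM at 0 h, 49.4, 66.3 and 65.5 CPM at 24 h, 43, 39.9 and 45.8 CPM at 48 h and 38.9, 44.1 and 20.1 CPM at 72 h. The treated and untreated libraries of clone 1 overlapped at all times, and in clone 3 they separated at 48 and 72 h. Replicate 3 of clone 3 at 72 h, at 20.1 CPM, had a GC index of -0.22 against 0.25 and 0.28 in the other replicates. Without it the 72 h mean was 41.5 CPM in place of 34.4 CPM, beside 57.6 CPM at 0 h. Clone 1 changed by 0.18 ± 0.13, -0.20 ± 0.132 and -0.24 ± 0.134 at 24, 48 and 72 h, and no change passed the test (adjusted p = 0.252, 0.189 and 0.122). Clone 3 changed by 0.05 ± 0.207 (adjusted p = 0.875), -0.46 ± 0.209 (adjusted p = 0.0649) and -0.78 ± 0.211 (adjusted p = 0.00522), so CHPF fell at 72 h to 0.584 times its untreated level. The untreated shIRE1 libraries had GC indices of -0.43 to -0.08, and with GC offsets more of these changes passed the test. Clone 1 then changed by -0.01 (adjusted p = 0.88), -0.45 (2.3e-07) and -0.38 (4.24e-06), and clone 3 by -0.33 (0.0137), -0.94 (6.45e-07) and -1.03 (2.73e-07), so that the sign at 24 h in clone 3 turned. The difference between the clones in the CHPF response, clone 1 minus clone 3, was 0.53 ± 0.375 at 72 h (adjusted p = 0.317), and 0.62 with GC offsets (adjusted p = 0.0033).

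**Figure D2:**
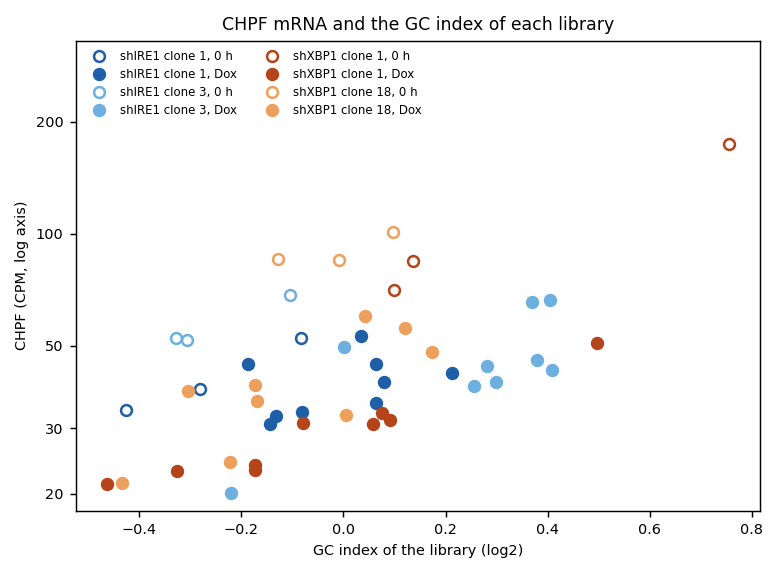
CHPF mRNA (CPM, log axis) against the GC index of the library (log2) in all 48 libraries. Open circles are untreated and filled circles are Dox-treated libraries. At a like GC index the treated shXBP1 libraries sit below the untreated ones, and the highest point is untreated replicate 1 of shXBP1 clone 1, at 174 CPM and an index of 0.75.

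CHPF2, the second polymerizing factor, rose after IRE1 silencing, whereas it was lower after XBP1 silencing. In shIRE1 clone 1 it measured 26, 26.3 and 28.5 CPM at 0 h, 31, 34.8 and 35.2 CPM at 24 h, 46.1, 44.2 and 39.4 CPM at 48 h and 42.1, 37.1 and 34.8 CPM at 72 h. CHPF2 in shIRE1 clone 3 measured 28, 31.6 and 35.8 CPM at 0 h, 30.7, 43.5 and 39 CPM at 24 h, 66.9, 58.8 and 58.8 CPM at 48 h and 54.1, 54.5 and 42.6 CPM at 72 h. All treated libraries lay above the untreated ones in clone 1 from 24 h and in clone 3 from 48 h. It rose by 0.30 ± 0.077, 0.68 ± 0.0762 and 0.49 ± 0.0774 (log2) in clone 1 at 24, 48 and 72 h (adjusted p = 0.00214, 2.26e-07 and 1.96e-05). In clone 3 it changed by 0.23 ± 0.129 at 24 h (adjusted p = 0.167) and rose by 0.91 ± 0.128 at 48 h and 0.63 ± 0.128 at 72 h (adjusted p = 1.76e-05 and 0.000608). Without replicate 1 at 24 h, the library that stood apart, the 24 h change in clone 3 was 0.34 (adjusted p = 0.0311), and the call at 24 h in clone 1 was lost when all 48 libraries were fitted together. After XBP1 silencing CHPF2 went from 55.4, 45.1 and 43.4 CPM at 0 h to 33.9, 28.3 and 28.4 CPM at 72 h in clone 1. For shXBP1 clone 18 the values were 75.5, 65.6 and 69.3 CPM at 0 h and 44.7, 32.9 and 29.5 CPM at 72 h. Those groups did not overlap, with log2 changes of -0.69 ± 0.143 and -0.97 ± 0.13, or -0.84 in clone 18 without the library that stood apart. CHPF2 exons share 31.0% of their bases with other annotated genes. These are SMARCD3 on the opposite strand and ENSG00000272661 and MIR671 on the same strand. CHPF exons share 4.0% with TMEM198 on the opposite strand. Reads shared with an opposite-strand gene are uncertain where counting did not use strand. Those shared with a same-strand gene are uncertain either way.

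CHSY1, the most abundant of the enzymes per kilobase, fell after IRE1 silencing in both clones. In shIRE1 clone 1 it measured 310, 305 and 301 CPM at 0 h, 257, 249 and 247 CPM at 24 h, 215, 212 and 223 CPM at 48 h and 213, 220 and 222 CPM at 72 h. CHSY1 in shIRE1 clone 3 measured 332, 337 and 320 CPM at 0 h, 246, 239 and 243 CPM at 24 h, 204, 209 and 205 CPM at 48 h and 196, 181 and 208 CPM at 72 h. Every treated library lay below every untreated one. CHSY1 fell by 0.30 ± 0.0371, 0.50 ± 0.0372 and 0.49 ± 0.0373 (log2) in clone 1 (adjusted p = 1.11e-06, 8.71e-10 and 1.19e-09). In clone 3 it fell by 0.46 ± 0.0492, 0.71 ± 0.0494 and 0.79 ± 0.0495 (adjusted p = 2e-06, 7.44e-09 and 2.21e-09). At 72 h the fall was shallower in clone 1 than in clone 3 by 0.29 ± 0.0843 (adjusted p = 0.00717). In shXBP1 clone 1 CHSY1 had means of 262 ± 21.8 CPM at 0 h and 271 ± 13.5 CPM at 72 h (SD, n = 3), and in shXBP1 clone 18 of 199 ± 3.82 and 231 ± 30.3 CPM. The log2 changes in those clones ran from -0.04 to 0.21, with the highest in clone 18 at 72 h, which was 0.11 without the library that stood apart.

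CSGALNACT1 and CSGALNACT2, which place the first N-acetylgalactosamine, responded differently in the 2 shIRE1 clones. CSGALNACT1 measured 17.6, 17.1 and 15.2 CPM at 0 h and 28, 27.8 and 27.8 CPM at 72 h in shIRE1 clone 1, and 20.6, 20.1 and 19.5 CPM at 0 h and 21.7, 25.9 and 24.4 CPM at 72 h in shIRE1 clone 3. It rose in clone 1 by 0.73 ± 0.0622, 0.66 ± 0.0626 and 0.74 ± 0.0631 (adjusted p = 8.18e-09, 2.36e-08 and 6.12e-09), and in clone 3 by 0.24 ± 0.0793 at 24 h and 0.22 ± 0.0795 at 72 h (adjusted p = 0.0203 and 0.024), with -0.02 ± 0.0798 at 48 h (adjusted p = 0.825). The calls in clone 3 were lost when single replicates were left out, at 0.21 for untreated replicate 3 or 24 h replicate 3 and 0.23 for untreated replicate 2 at 24 h, and at 0.21, 0.19 and 0.16 for untreated replicates 2 and 3 and for 72 h replicate 2 at 72 h. CSGALNACT2 measured 37.5, 38.7 and 35 CPM at 0 h and 44.2, 46.2 and 45.2 CPM at 72 h in clone 1, and 50.6, 51.6 and 48.9 CPM at 0 h and 41.1, 40.2 and 46.9 CPM at 72 h in clone 3. The groups did not overlap in either clone, and the clones moved in opposite directions. CSGALNACT2 rose in clone 1 by 0.16 ± 0.0595, 0.23 ± 0.0596 and 0.28 ± 0.06 (adjusted p = 0.0259, 0.00251 and 0.000484) and fell in clone 3 by 0.32 ± 0.0593, 0.35 ± 0.0593 and 0.27 ± 0.0593 (adjusted p = 0.000393, 0.000102 and 0.000964). The 24 h call in clone 1 did not hold with DESeq2 or RLE factors (0.14), with limma (0.14), with all 48 libraries (0.16) or only the 6 compared (0.15), or without untreated replicate 3 (0.12), 24 h replicate 1 (0.13) or 24 h replicate 3 (0.16).

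The difference between the responses of the shIRE1 clones was tested directly in 1 model of all 48 libraries. For CSGALNACT1 the response of clone 1 exceeded that of clone 3 by 0.48 ± 0.106, 0.67 ± 0.107 and 0.50 ± 0.107 (log2) at 24, 48 and 72 h (adjusted p = 0.000637, 4.17e-06 and 0.000341). For CSGALNACT2 it did so by 0.48 ± 0.119, 0.57 ± 0.119 and 0.54 ± 0.12 (adjusted p = 0.00199, 0.00025 and 0.000538). Together with CHSY1 at 72 h, 2, 2 and 3 members differed between the clones, where 28.2%, 30.8% and 27.5% of all genes tested did so. Both genes started higher in clone 3 at 0 h, as given above, and ended at 27.9 ± 0.123 and 24 ± 2.14 CPM for CSGALNACT1 and at 45.2 ± 0.991 and 42.7 ± 3.66 CPM for CSGALNACT2 at 72 h (mean ± SD, n = 3). In the shXBP1 clones CSGALNACT1 also depended on the clone. It measured 9.71, 11.5 and 11.1 CPM at 0 h and 16.7, 16.4 and 18.2 CPM at 72 h in clone 1 (log2 change 0.64 ± 0.0857), and 19, 20.2 and 18.6 CPM at 0 h and 20.4, 19.9 and 16.8 CPM at 72 h in clone 18 (-0.01 ± 0.0902). CSGALNACT2 changed by -0.09 ± 0.0928 in shXBP1 clone 1 and by -0.45 ± 0.103 in shXBP1 clone 18 at 72 h, or -0.32 in clone 18 without the library that stood apart.

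**Figure D3:**
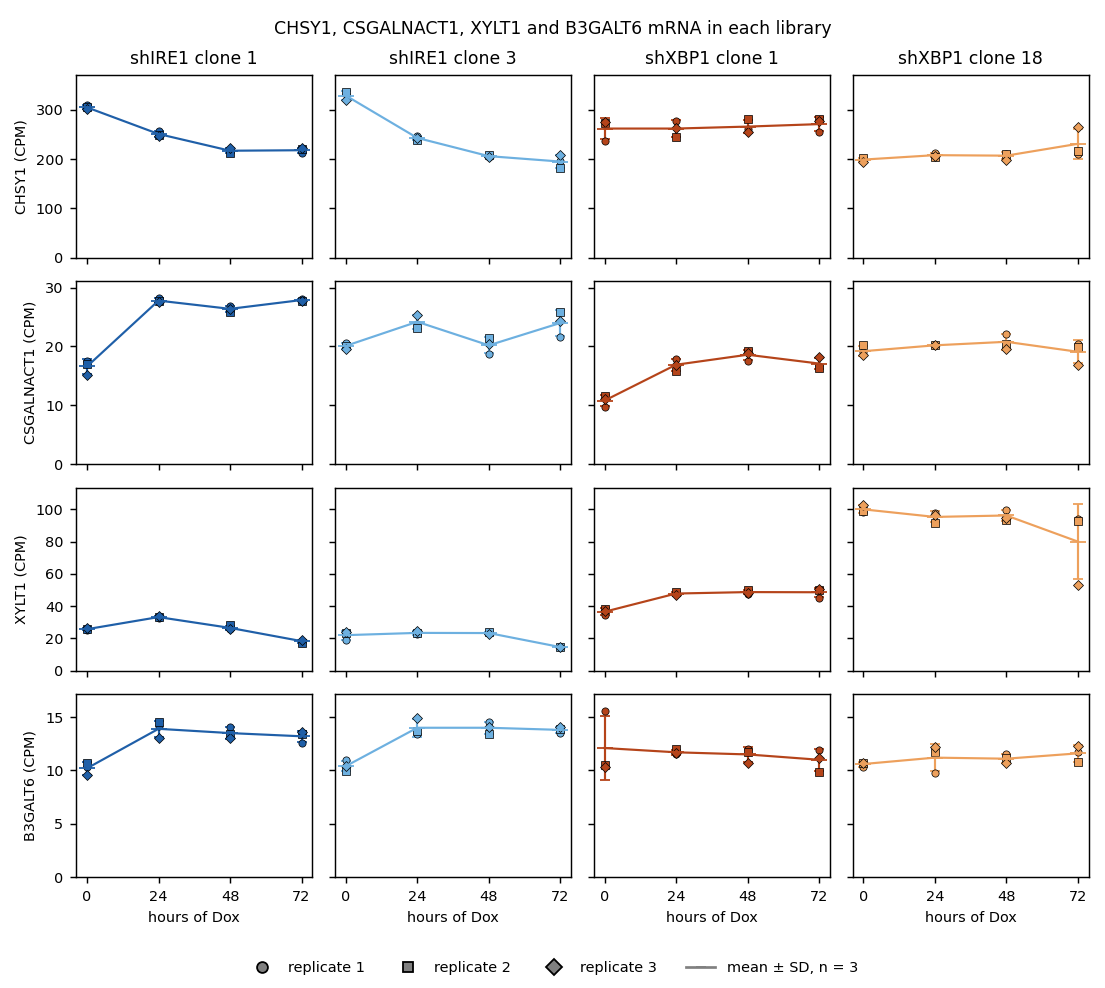
CHSY1, CSGALNACT1, XYLT1 and B3GALT6 mRNA in CPM (rows) against hours of Dox in the 4 clones (columns). Symbols are the 3 replicates and lines with bars are mean ± SD (n = 3). CHSY1 fell from means of 305 and 329 CPM to 218 and 195 CPM in the shIRE1 clones, XYLT1 fell late, and 1 library of shXBP1 clone 18 stood at 53.2 CPM of XYLT1 beside 94.1 and 92.6 CPM in the other replicates.

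Among the linker enzymes, XYLT1 fell late in both shIRE1 clones. In shIRE1 clone 1 it measured 24.9, 26 and 26.2 CPM at 0 h, 32.4, 33.5 and 33.7 CPM at 24 h, 25.6, 28.1 and 25.8 CPM at 48 h and 18.2, 17.4 and 19.2 CPM at 72 h. XYLT1 in shIRE1 clone 3 measured 18.9, 23.3 and 23.9 CPM at 0 h, 22.5, 23.3 and 24.5 CPM at 24 h, 23.4, 24 and 22.5 CPM at 48 h and 14.7, 14.6 and 14.5 CPM at 72 h. The 72 h libraries lay below all earlier libraries in both clones. XYLT1 rose by 0.35 ± 0.0582 at 24 h in clone 1 (adjusted p = 3.66e-05), changed by 0.07 ± 0.0838 in clone 3 at that time (adjusted p = 0.545), and at 72 h fell by 0.50 ± 0.0618 in clone 1 and 0.63 ± 0.0862 in clone 3 (adjusted p = 9.47e-07 and 1.44e-05). Between 48 and 72 h it fell by 0.54 ± 0.0615 and 0.67 ± 0.085 (adjusted p = 3.16e-05 and 0.000478). It was the 1 member of 10 called in that interval in each clone, where 0.869% and 0.936% of all genes tested were called. In shXBP1 clone 1 the log2 changes of XYLT1 were 0.35 ± 0.0635, 0.40 ± 0.0638 and 0.39 ± 0.0637. In shXBP1 clone 18 it measured 98.5, 98.9 and 103 CPM at 0 h and 94.1, 92.6 and 53.2 CPM at 72 h, and the log2 change there was -0.32 ± 0.155, or -0.09 without replicate 3, the library that stood apart.

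XYLT2, the second xylosyltransferase, passed the test at no time in either shIRE1 clone, with changes of -0.09, -0.17 and -0.20 in clone 1 (adjusted p = 0.417, 0.135 and 0.0781) and 0.22, 0.11 and -0.19 in clone 3 (adjusted p = 0.108, 0.397 and 0.136). With GC offsets XYLT2 was called lower in clone 1 at all times (-0.25, -0.35 and -0.32) and in clone 3 at 48 and 72 h (-0.25 and -0.37), so its direction in clone 3 at 48 h turned. In clone 1 at 72 h it was also called with DESeq2 (-0.22, adjusted p = 0.0395) and with RLE factors (-0.22, adjusted p = 0.0454). Without 24 h replicate 1, the library that stood apart, the 24 h change in clone 3 was called (0.29, adjusted p = 0.0444). B3GAT3 rose at 24 h, from 11, 11.1 and 15 CPM to 16.7, 20.5 and 18.2 CPM in clone 1 and from 13.1, 11.6 and 13.8 CPM to 17.7, 23.4 and 20.9 CPM in clone 3. Those groups did not overlap. The rises were 0.56 ± 0.116 and 0.67 ± 0.142 at 24 h (adjusted p = 0.000388 and 0.00138) and 0.29 ± 0.119 and 0.53 ± 0.143 at 48 h (adjusted p = 0.0411 and 0.00462), and the changes at 72 h were 0.14 ± 0.122 and 0.13 ± 0.145 (adjusted p = 0.331 and 0.474). With GC offsets the 24 h calls held, at 0.38 and 0.30, and the 48 h calls were lost, at 0.06 and 0.07. The 48 h call in clone 1 was also lost with all 48 libraries or only the 6 compared (0.28) and without untreated replicate 1 (0.22) or 2 (0.20), 24 h replicate 3 (0.29) or 48 h replicate 1 (0.24) or 2 (0.29).

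B3GALT6 and B4GALT7, the linker galactosyltransferases, rose at 24 h in both shIRE1 clones. B3GALT6 measured 10.3, 10.7 and 9.53 CPM at 0 h and 12.6, 13.4 and 13.6 CPM at 72 h in clone 1, and 11, 9.99 and 10.4 CPM at 0 h and 13.5, 13.9 and 14.1 CPM at 72 h in clone 3. It rose by 0.43 ± 0.0749, 0.41 ± 0.0755 and 0.37 ± 0.0768 in clone 1 (adjusted p = 5.9e-05, 0.000104 and 0.000376) and by 0.40 ± 0.0769, 0.39 ± 0.0768 and 0.37 ± 0.0771 in clone 3 (adjusted p = 0.000643, 0.00046 and 0.000751). With GC offsets the first of these 6 calls alone held (0.24, adjusted p = 0.0396), the others stood at 0.15 and 0.22 in clone 1 and 0.01, -0.11 and 0.15 in clone 3. B4GALT7 rose by 0.37 ± 0.0896 in clone 1 and 0.32 ± 0.121 in clone 3 at 24 h (adjusted p = 0.00157 and 0.0412), and its later changes ran from -0.09 to 0.14 with none called. The call in clone 3 was lost with GC offsets (0.09), which at 48 h turned its change to -0.20 and at 72 h called it lower (-0.23, adjusted p = 0.013). It was also lost with all 48 libraries (0.33) and without untreated replicate 1 (0.33) or 2 (0.23), 24 h replicate 2 (0.26) or 3 (0.27) or 48 h replicate 3 (0.32). In the shXBP1 clones at 72 h B3GAT3 changed by -0.74 ± 0.255 and -0.29 ± 0.151, B4GALT7 by -0.32 ± 0.174 and -0.45 ± 0.147, B3GALT6 by -0.16 ± 0.14 and 0.13 ± 0.0998 and XYLT2 by -0.32 ± 0.159 and 0.00 ± 0.111 in clones 1 and 18. Without untreated replicate 1 of clone 1, B3GAT3 changed by -0.46 there.

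**Figure D4:**
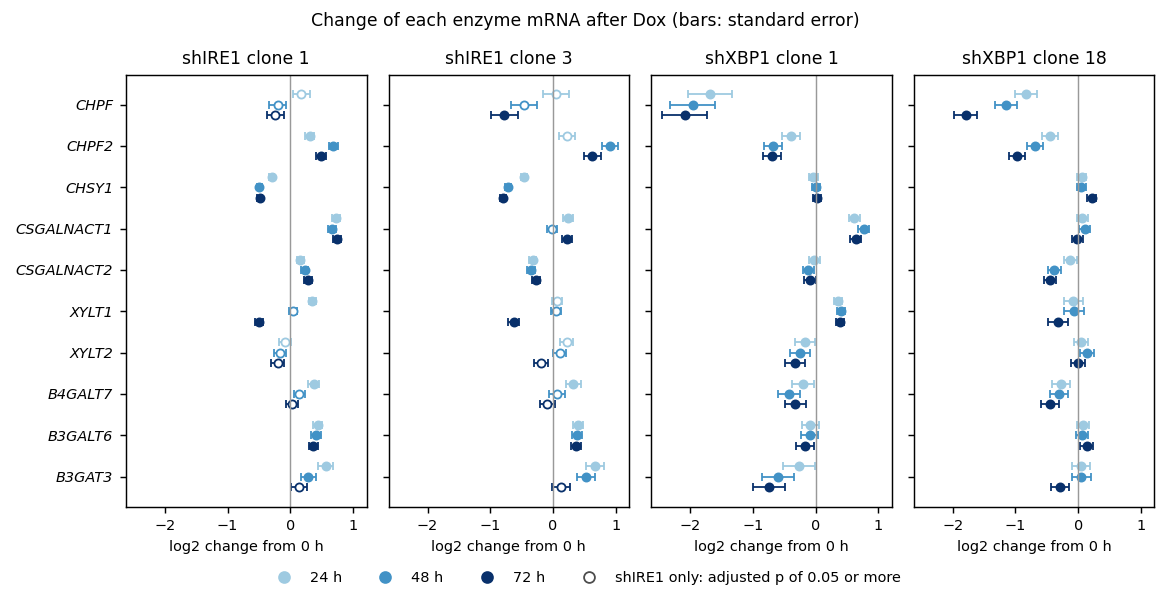
Log2 change from 0 h (x axis) of the 10 enzymes (rows) in each clone at 24, 48 and 72 h (light to dark), with standard errors as bars. In the shIRE1 panels open circles have an adjusted p of 0.05 or more. CHPF has the lowest values in both shXBP1 panels, down to -2.09, and CHSY1 is below 0 at every time in the shIRE1 panels.

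As a set the enzymes moved in both directions in the shIRE1 clones. In shIRE1 clone 1, 7, 5 and 4 of 10 were higher at 24, 48 and 72 h, where 32.4%, 33.9% and 32.5% of all genes tested were, and 1, 1 and 2 were lower, where 29%, 31.5% and 31.1% were. In shIRE1 clone 3, 4, 3 and 3 were higher (22.8%, 31.6% and 29.7% of all genes) and 2, 2 and 4 were lower (23.3%, 31.6% and 30.5% of all genes). The median log2 changes of the members were 0.33, 0.19 and 0.08 in clone 1 and 0.22, 0.05 and -0.14 in clone 3, and those of all genes ran from 0.015 to 0.0421. Without the 24 h library of clone 3 that stood apart, 8 in place of 6 members were called there, with CHPF2 and XYLT2 added. Members called in both clones in the same direction numbered 5, 4 and 5 (30.4%, 43.5% and 42% of genes tested in both), and CSGALNACT2 was called in opposite directions each time. From 24 to 48 h, 4 members in clone 1 and 3 in clone 3 were called (30.3% and 34.6% of all genes), among them CHPF2, which rose by 0.38 ± 0.0744 and 0.69 ± 0.126, and CHSY1, which fell by 0.20 ± 0.0372 and 0.25 ± 0.0492. Without the 24 h library of clone 3 that stood apart, 5 in place of 3 members were called in clone 3, with CHPF (-0.63, adjusted p = 0.0436) and B4GALT7 (-0.35, adjusted p = 0.0357) added, and the rise of CHPF2 was 0.57. CHPF fell by 0.38 ± 0.131 in clone 1 in that interval (adjusted p = 0.0347), a call lost with DESeq2 (-0.38) and without 24 h replicate 2 (-0.29) or 48 h replicates 2 (-0.35) or 3 (-0.28).

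In the shXBP1 clones the same counts come from the contrast that led to the choice of CHPF, and nothing is read from them. In clone 1, 2, 2 and 2 members passed the threshold upwards (13.9%, 16.6% and 16.8% of all genes) and 1, 2 and 3 downwards (12.8%, 15.5% and 16.8% of all genes). In clone 18, 1, 3 and 3 passed it downwards (1.3%, 3.5% and 5.55% of all genes), and 0 passed it upwards in the edgeR fit at any time (0.291%, 2.28% and 4.41% of all genes), with 0, 0 and 1 at an unadjusted p under 0.05 and 0 with DESeq2 and with limma. Without the 72 h library of clone 18 that stood apart, 2 in place of 1 passed it downwards at 24 h. CHPF and CHPF2 were the members on the lower side in both clones at 48 and 72 h, a description only, since CHPF was picked for its fall there. Median log2 changes of the members were -0.13, -0.18 and -0.24 in clone 1 and -0.02, -0.01 and -0.31 in clone 18, against -0.01 to 0.00 for all genes. The 72 h median of clone 18 includes the library that stood apart and was not recomputed without it. Leaving that library out moved XYLT1 from -0.32 to -0.09 and B3GAT3 from -0.29 to -0.26 at 72 h.

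Some genes outside the enzymes had a pattern of change like that of CHPF. Likeness was the root mean square difference in log2 change over the 12 combinations of clone and time, among 12008 genes. Those 12 include the shXBP1 values that led to the choice of CHPF, where its changes were largest. The genes named below are therefore a description only. The nearest were YIF1A, a protein of transport between endoplasmic reticulum and Golgi (0.30), the amino acid transporter SLC38A10 (0.331), the immunoglobulin heavy chain gene IGHA1 (0.360), XBP1 itself (0.382) and IGHA2 (0.424). At 72 h YIF1A changed by -1.75 and -1.39 in shXBP1 clones 1 and 18 and by -0.08 and -0.27 in shIRE1 clones 1 and 3, and XBP1 by -2.29 and -2.17 and by -0.37 and -0.81. IGHA1 and IGHA2 are near-identical in sequence, so reads may be split between them, and 4 of the 5 genes have a GC share of 61.9% to 63.9%, close to that of CHPF. By Pearson correlation the 5 nearest were RNH1, SLC2A6, FAM3A, GALK1 and CEND1, with r of 0.977 to 0.992 over the 12 values that share the untreated libraries of each clone, and 0 genes were common to both lists.

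**Figure D5:**
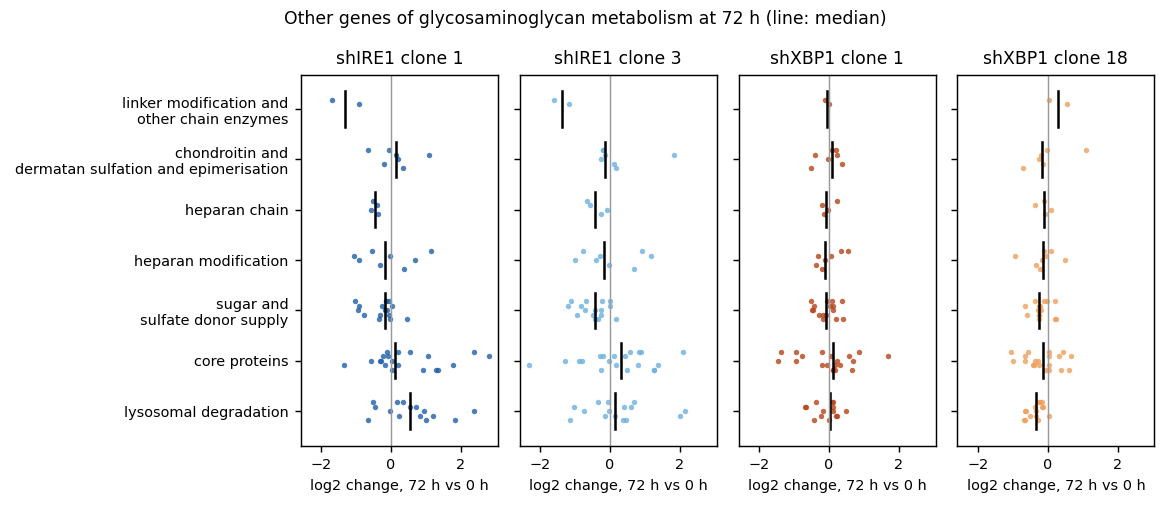
Log2 change at 72 h against 0 h (x axis) of other genes of glycosaminoglycan metabolism, by group (rows) and clone (panels). Each point is a gene and the line is the group median. The linker modification genes lie at -0.92 or lower in both shIRE1 clones, and the heparan chain genes have medians of -0.46 and -0.42 there.

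The other genes of the pathway were read at 72 h in the shIRE1 clones, for comparison with the enzymes above. Of the enzymes that modify the linker, FAM20B, the kinase that phosphorylates its xylose, fell by 1.69 ± 0.0627 in clone 1 and 1.59 ± 0.0651 in clone 3 (adjusted p = 4.06e-14 and 2.34e-11), and PXYLP1, the phosphatase that removes this phosphate, fell by 0.92 ± 0.12 and 1.17 ± 0.112 (adjusted p = 1.85e-06 and 2.93e-07). These 2 were the genes tested of a list of 3, and in shXBP1 clones 1 and 18 FAM20B changed by -0.10 and 0.05 and PXYLP1 by 0.01 and 0.55. Of 4 heparan chain polymerases and initiators tested, 4 fell in clone 1 and 3 in clone 3, among them EXT1 (-0.51 and -0.66) and EXT2 (-0.41 and -0.57), which together extend the chain. Of 7 chondroitin sulfation and epimerisation genes tested, 4 rose and 2 fell in clone 1 and 2 rose and 3 fell in clone 3. Of 8 heparan modification genes tested, 2 rose and 3 fell in each clone, with NDST1, an N-sulfotransferase, higher (0.37 and 0.68) and the epimerase GLCE lower (-0.56 and -0.77). Sugar and sulfate donor genes fell for 9 of 16 in clone 1 and 13 of 16 in clone 3, and 1 of 16 rose in each. UGDH, which makes UDP-glucuronic acid, fell by 0.76 ± 0.052 and 0.95 ± 0.0604. Core protein genes rose for 7 of 20 and 9 of 20 and fell for 5 of 20 and 6 of 20, with SDC4 higher (0.90 and 1.27) and SDC1 lower (-0.58 and -0.79). Lysosomal degradation genes rose for 11 of 15 and 6 of 15 and fell for 3 of 15 and 5 of 15, with the iduronidase IDUA higher by 2.38 ± 0.196 and 2.16 ± 0.254. The share of all genes tested that rose or fell at this time lay between 29.7% and 32.5%, and the 9 plasma cell markers were mostly lower too (7 in clone 1 and 9 in clone 3), with summed levels of 14000 to 16000 CPM at 0 h and 8910 to 11700 CPM with Dox in clone 1 and of 17200 to 18800 and 7520 to 12600 CPM in clone 3. Summed markers of other cell types moved as well, over the same Dox libraries of all 3 times. They went from 7.2 to 7.89 CPM to 17.4 to 22.5 CPM in clone 1. In clone 3 they went from 8.72 to 8.88 CPM to 15.9 to 20.3 CPM, and their part in the result was not tested.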

How the data were processed

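Poly(A) RNA of 48 AMO1 libraries was read as single ends of 50 bases. Groups came from the labels (titles write the hours as days, and the treatment label was used). The authors deposited counts per gene, which are not normalized, and log2 CPM values with TMM scaling for 18401 genes. The submitters' processing notes name GSNAP, R 4.1.3, edgeR 3.32.1, limma 3.46.0 and GRCh37, whereas GRCh38 is named for a related experiment, so no coordinates of the count table are printed. Use of strand in counting is not given in the sources used here. Lengths, GC shares and overlaps are from GENCODE 44 (GRCh38) and promoters from RefSeq (GRCh38.p14), where CHPF has 2 entries and the one at the gene's 5′ end was taken.

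For each clone, edgeR 4.0.16 in R 4.3.3 took its 12 libraries, scaled them by TMM and ran the quasi-likelihood test, after filterByExpr (minimum count 10, minimum total 15). P-values were adjusted by Benjamini-Hochberg across the genes of a fit, and 0.05 was the threshold. Errors of log2 changes are standard errors and those of CPM are SD. Differences between shIRE1 clones used all 48 libraries. Alternatives were RLE factors, no filter, other sets of libraries, DESeq2 1.42.0, limma 3.58.1 on the deposited log2 table (equal to edgeR log2 CPM to 5e-14), a replicate block and leaving out each library, and scripts were tested on simulated data. GC offsets (20 bins of genes) were added after seeing the data. Total counts of 19177855 to 40767202 limit precision for low genes. The members and gene lists were chosen with earlier results of these data known. Named genes are the members, ERN1, XBP1, the 5 nearest to CHPF and, per pathway list, up to 4 genes called the same way in both shIRE1 clones at 72 h. No libraries held identical values. A gene that the naming rule gave is not reported here.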

Additional observations from a re-analysis of the deposited data

Results flagged for a closer look

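Responses of the shIRE1 clones differed by a test of the difference itself for 7 values, given as log2 change in clone 1 minus that in clone 3. At 24, 48 and 72 h these were 2, 2 and 3 of 10 members, where 28.2%, 30.8% and 27.5% of all genes tested differed. CSGALNACT1 differed by 0.48, 0.67 and 0.50 at 24, 48 and 72 h (adjusted p = 0.000637, 4.17e-06 and 0.000341, edgeR). CSGALNACT2 differed by 0.48, 0.57 and 0.54 (adjusted p = 0.00199, 0.00025 and 0.000538), with a rise in clone 1 and a fall in clone 3. CHSY1 differed by 0.29 at 72 h (adjusted p = 0.00717), and fell in both clones.

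CHPF2 moved in opposite directions under the shRNAs. All 6 shIRE1 libraries lay above the untreated mean of their clone and all 6 shXBP1 libraries below it, at 48 h with a difference in mean log2 change of 1.49 and at 72 h of 1.404. This difference was not tested, since the enzymes were chosen with the shXBP1 values known.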

How the results depend on the processing

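The log2 changes of the 10 enzymes were recomputed under each alternative. A value was counted as kept if it stayed on its side of the threshold and, where either fit called it, kept its direction. Turns of sign in values that neither fit called were not counted. Kept were 198 of 200 values with RLE size factors, 193 of 200 with DESeq2, 118 of 120 with limma, 114 of 120 with only the 6 libraries compared, 108 of 120 with all 48 libraries, 35 of 40 with only the 24 shIRE1 libraries, 173 of 200 with no filter, 161 of 200 with GC offsets and 2795 of 2880 when 1 library was left out. Only GC offsets turned the sign of a value called in either fit.

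GC offsets turned the sign of 7 values, and none of them passed the threshold in both fits. B3GALT6 in shIRE1 clone 3 at 48 h passed it without the offsets (adjusted p = 0.00046, edgeR) and not with them (0.49). The others passed it with the offsets only. In shIRE1 clone 3 CHPF at 24 h became -0.33, and at 48 h B3GALT6 became -0.11, B4GALT7 -0.20 and XYLT2 -0.25. In shXBP1 clone 1 XYLT2 at 48 h became 0.11 and B3GALT6 became 0.46 at 48 h and 0.37 at 72 h. The number of members called changed from 2 to 4 between untreated shIRE1 clones (5 with only the 24 shIRE1 libraries), from 3 to 7 in shIRE1 clone 3 between 24 and 48 h (5 with no filter), from 4 to 7 in shXBP1 clone 1 at 48 h, from 1 to 2 in shXBP1 clone 18 at 24 h (2 also with DESeq2, no filter and only the 6 libraries) and from 3 to 5 there at 72 h (6 with no filter and with all 48 libraries). In shIRE1 clone 3 between 48 and 72 h it went from 1 to 5 with no filter. The cause was not tested. Over all genes, GC offsets raised the calls in shXBP1 clone 18 from 268, 974 and 1680 to 717, 2056 and 2561 at 24, 48 and 72 h. In shXBP1 clone 1 the calls went from 4430, 5320 and 5584 to 7525, 7321 and 7875. Between 24 and 48 h the calls over all genes went from 5204 to 6738 in shIRE1 clone 1 and from 5960 to 7215 in shIRE1 clone 3. Between 48 and 72 h they went from 149 to 348 and from 161 to 301 in shIRE1 clones 1 and 3. For the untreated shIRE1 clones 7481 of 18445 genes were called without the offsets, and the total with them was not taken. Totals over all genes are not given for the other alternatives, and nothing is read from the shXBP1 counts.

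Leaving out 1 library gave counts of members called of 7 to 8, 5 to 7 and 6 to 8 in shIRE1 clone 1 at 24, 48 and 72 h, and 4 to 8, 5 to 6 and 6 to 7 in shIRE1 clone 3. In the shXBP1 clones, where nothing is read from them, the counts were 3 to 4, 4 to 5 and 4 to 5 in clone 1. They were 0 to 2, 1 to 3 and 2 to 5 in clone 18. With no library left out, 4430, 5320 and 5584 of 16603 genes passed the threshold in shXBP1 clone 1. In clone 18, 268, 974 and 1680 of 16860 did. Counts over all genes were not taken for the fits with 1 library left out. Between 24 and 48 h the counts of members called were 3 to 6 and 2 to 5 in shIRE1 clones 1 and 3, and between 48 and 72 h 1 to 1. Response differences gave 2 to 2, 2 to 3 and 3 to 3, and untreated clones 2 to 2.

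Replicate numbers did not pair the libraries. Same-numbered libraries of a clone had correlations of deviations from -0.807 to 0.668. With the replicate block 185 of 190 values kept their call and 5 lost it. In shIRE1 these were B3GAT3 in clone 1 at 48 h (0.29), B4GALT7 in clone 3 at 24 h (0.32) and CHPF in clone 1 from 24 to 48 h (-0.38). In shXBP1, where the side of the threshold is a description only, they were B3GAT3 in clone 1 at 72 h (-0.73) and CHPF in clone 18 at 24 h (-0.83). The block could not be fitted for untreated clones.

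The lowest level of any member in any library was 8.18 CPM (B3GAT3).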
